A study of Mus musculus with 6 samples.

Results

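The proteasome subunits on the arrays were the genes whose symbol begins with Psma, Psmb, Psmc, Psmd, Psme or Psmf followed by a number, named by matching each probe's accession to RefSeq genes (GRCm38.p6). They were 44 of the 36717 genes and unnamed targets on the array (21368 with a RefSeq symbol), and 55 of its 55681 probes. Gene expression had been measured in gastrocnemius, a mixed and mostly fast calf muscle, of old male mice (25 months, 3 samples) and young male mice (13 weeks, 3 samples). The Cy3-labelled RNA of a sample had its own single-colour Agilent array, and all 6 arrays lay on 1 slide. The labels name no strain, allele or treatment in either age. They do not say that the samples came from separate animals, so p-values measure only how much these samples vary, which may be technical.

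The proteasome degrades proteins that carry ubiquitin chains. Its barrel-shaped 20S core has outer rings of alpha subunits that gate the entry and inner rings of beta subunits, some of which hold the proteolytic sites. The 19S regulatory particle caps the core, binds and removes ubiquitin, and unfolds substrates with a ring of ATPases. Interferon gamma induces the immunoproteasome, in which the catalytic subunits encoded by Psmb8, Psmb9 and Psmb10 replace the standard ones encoded by Psmb5, Psmb6 and Psmb7, and the PA28 activator encoded by Psme1 and Psme2. In muscle the ubiquitin-proteasome pathway is known for its part in the breakdown of myofibrillar proteins during atrophy.

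Of the 44 genes, 42 were well above background on all 6 arrays and were tested. Psmb11, the catalytic subunit of the thymic proteasome, was well above background only on the array of old replicate 1. Psma8, an alpha subunit of the testis, did not rise well above background on any of the 6 arrays. No probe was matched to Psme2, which was not analysed here. The arrays had between 49.9% and 54.8% of gene spots well above background, and the number of arrays limits the precision. All 10 muscle fibre markers were measured, from the creatine kinase Ckm to the calcium store protein Casq1, with a median log2 difference (old minus young) of -0.17. The myosin heavy chain Myh1 differed by -0.33, and the fast myosin light chain Mylpf by 1.29, or by 0.36 without young replicate 3. Of 16 leukocyte markers 14 were measured, and Cd8a and Cd79a were not. The array of old replicate 1 stood apart, with a mean negative-control signal of 61.3 and a spike-in slope of 0.840, where the other 5 arrays had slopes from 0.925 to 0.941. Values below are the log2 processed signal relative to the 75th percentile of the same array, and differences are old minus young on that log2 scale with their standard errors (SE) over 3 arrays per age.

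No proteasome gene passed limma's test between old and young muscle, with the threshold at an adjusted p (Benjamini-Hochberg) under 0.05. That threshold was passed by 53 of the 20907 genes tested (0.254%), and the lowest adjusted p among the 42 proteasome genes was 0.266, for Psme1. At an unadjusted p under 0.05 in the same test, 1 proteasome gene was higher in old muscle, Psmd10 (2.38% of the 42), where 6.06% of all genes tested were higher at that threshold. Psme1 and Psmf1 were lower (4.76% of the 42), where 8.38% of all genes were lower. With 1 and 2 genes these shares were near the background, and with 1 array left out the counts ran from 0 to 4 higher and from 0 to 3 lower. They reached 4 higher without old replicate 2, 3 lower without old replicate 1, and 0 in either direction without young replicate 3. All 3 old values lay above all 3 young values for Psmb3, Psmc2, Psmc4, Psmd1 and Psmd10, 11.9% of the 42 against 7.93% of all genes tested. All 3 old values lay below all 3 young values for Psmb10, Psme1, Psme4 and Psmf1, 9.52% of the 42 against 13.9% of all genes.

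The differences were small for most subunits. The median over the 42 genes was 0.07, beside -0.06 over all genes tested and -0.10 over the 5227 brightest of them. The difference was positive for 30 genes and negative for 12, where 43.1% of all genes had a positive one. That balance of signs depended on the scaling: with each array centred on its own median, the median over all genes moved by more than 0.1 to -0.21, and 11 of the 42 proteasome genes had a positive difference. Under either scaling 33 of the 42 lay above the median of all genes. That count could not differ, because both scalings move all genes of an array by the same amount. The 95% interval of the difference lay within 1 log2 unit on either side of 0 for 36 of the 42 genes and within 0.5 for 19. The typical proteasome gene also varied little within an age, with a median within-age standard deviation (SD) of 0.166, beside 0.199 in the 5227 brightest genes and 0.275 over all genes tested.

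**Figure D1:**
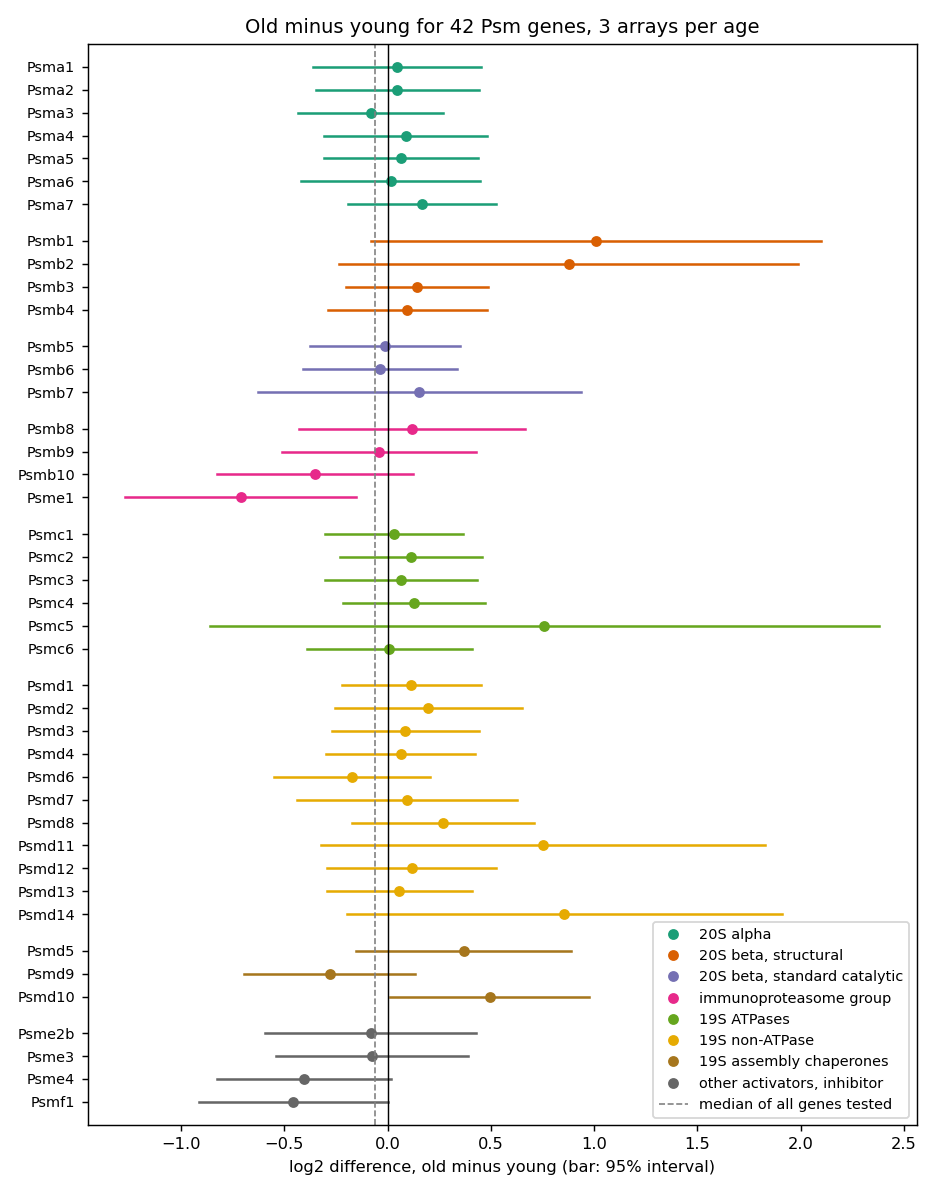
Log2 difference, old minus young, for each of the 42 proteasome genes tested, with bars for the 95% interval and colours for the role of the subunit (3 arrays per age); the dashed line is the median of all genes tested, -0.06. The point for Psme1 lies at -0.71 with an interval below 0, Psmb1 has the highest point at 1.01, and with each array centred on its own median the points of many subunits near 0, among them Psmb3 and Psmc2, change sign.

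The alpha ring of the 20S core showed no difference past the test. The 7 genes Psma1 to Psma7 had differences from -0.08 to 0.16 with a median of 0.05, and the 95% intervals of all 7 lay within 1 log2 unit of 0. Psma7, the alpha subunit at the upper end, had values of 6.57, 6.55 and 6.47 in old muscle, against 6.29, 6.31 and 6.51 in young muscle, a difference of 0.16 ± 0.15 (SE). The highest young value thus lay between the old ones. Psma3, at the lower end, had 7.50, 7.63 and 7.59 in old muscle and 7.63, 7.57 and 7.76 in young muscle, with overlapping ages and a difference of -0.08 ± 0.15. Quantile normalization turned the sign of Psma3, to 0.05.

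The standard catalytic subunits differed little between the ages. Psmb5 carries the chymotrypsin-like site of the standard core. Its values were 8.34, 8.53 and 8.45 in old muscle and 8.35, 8.45 and 8.56 in young muscle, with the ages fully interleaved. The difference was -0.01 ± 0.15, with a 95% interval from -0.37 to 0.35. The sign of Psmb5 changed under several settings, from -0.16 to 0.11, and its second probe gave 0.15. Psmb6, the caspase-like subunit, had 7.52, 7.81 and 7.68 in old muscle and 7.69, 7.65 and 7.78 in young muscle, again overlapping. The difference was -0.04 ± 0.16, with an interval from -0.41 to 0.34, and it was 0.10 after quantile normalization. Psmb7, the trypsin-like subunit, had 5.40, 4.42 and 5.57 in old muscle and 5.26, 4.91 and 4.76 in young muscle. Its lowest and highest values both came from old muscle, and the difference of 0.15 ± 0.33 was within that spread.

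The 4 structural beta subunits had the highest median of the core groups, 0.51, with differences from 0.10 to 1.01. None passed the test. Psmb1, a structural subunit of the beta ring, had values of 6.16, 5.43 and 6.14 in old muscle and 5.61, 5.20 and 3.89 in young muscle. The difference was 1.01 ± 0.46 (2.01-fold, adjusted p = 0.377), and young replicate 3 lay far below the other 5 arrays. Without young replicate 3 it was 0.50. Psmb2 had 2.52, 2.28 and 2.42 in old muscle and 2.36, 1.81 and 0.41 in young muscle. Its difference of 0.88 ± 0.47 (adjusted p = 0.435) was likewise 0.32 without young replicate 3. Psmb3 was more even, with 7.56, 7.63 and 7.71 in old muscle and 7.43, 7.49 and 7.55 in young muscle. The ages did not overlap, but the difference of 0.14 ± 0.15 did not pass the test (adjusted p = 0.678), and centring each array on its median gave -0.0055.

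Over the 14 standard core genes the median difference was 0.08, and -0.07 with each array centred on its median. With 1 array left out it ran from 0.02, without old replicate 3, to 0.13, without old replicate 2. The within-age SD of the array medians of these genes, pooled over both ages, was 0.07, about as large as the difference. The interval lay within 1 log2 unit of 0 for 12 of the 14 and within 0.5 for 10.

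The immunoproteasome genes included the lowest difference of the whole family. Psme1 encodes the alpha subunit of the PA28 activator, which opens the core without ubiquitin recognition. Its values were 5.07, 4.29 and 4.89 in old muscle, against 5.34, 5.44 and 5.61 in young muscle, so all old values lay below all young ones. The difference was -0.71 ± 0.24 (0.611-fold, 95% interval from -1.27 to -0.15, unadjusted p = 0.0198), and after adjustment over all genes it did not pass (adjusted p = 0.266). The probe was spotted repeatedly, with 8 to 10 spots used per array, whose log2 values had an SD between 0.048 and 0.088. That SD covers repeat spots of 1 array only, and the within-age SD of Psme1 between samples was 0.303. Old replicate 2 lay more than 1 log2 unit below the median of the other 5 arrays, and without it the difference was -0.48. The sign was negative in all 18 alternatives, with an adjusted p from 0.131 to 0.613, but these were not 18 separate checks. Psme1 has 1 probe, well above background on all 6 arrays, so changing the filter or averaging probes returned the same -0.71. The eBayes options and the replicate block also left the estimate at -0.71. Row 1 of the slide held the 3 young arrays and old replicate 1, and within it the difference was -0.39 ± 0.24. The slide row as a block gave the same -0.39, because row 2 held only old arrays.

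Psmb10, the trypsin-like subunit of the immunoproteasome, had values of 3.53, 3.99 and 3.90 in old muscle, against 4.03, 4.04 and 4.40 in young muscle. The ages did not overlap, although the highest old value lay close to 2 of the young ones. The difference was -0.35 ± 0.20 (adjusted p = 0.461). It was -0.21 without old replicate 1, the lowest array, -0.23 without young replicate 3, and -0.63 within row 1 of the slide, whose only old array is old replicate 1. Psmb8, the chymotrypsin-like subunit, had 1.59, 0.85 and 1.09 in old muscle and 1.13, 1.17 and 0.88 in young muscle. The lowest and the highest value both came from old muscle, the difference was 0.12 ± 0.23, and its sign turned with median centring (-0.03) and without old replicate 1 (-0.09). Psmb9, which takes the place of Psmb6, had 0.66, 0.15 and 0.15 in old muscle and 0.30, 0.29 and 0.51 in young muscle. Its difference was -0.04 ± 0.20, and within row 1 of the slide, which holds no old array but old replicate 1, it was 0.29. Old replicate 1 was the highest of the 6 arrays for both Psmb8 and Psmb9 and the lowest for Psmb10. Over the 4 genes the median difference was -0.20, with a pooled within-age SD of the array medians of 0.17. It was -0.34 with each array centred on its median, -0.05 within row 1 of the slide and -0.10 without young replicate 3.

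**Figure D2:**
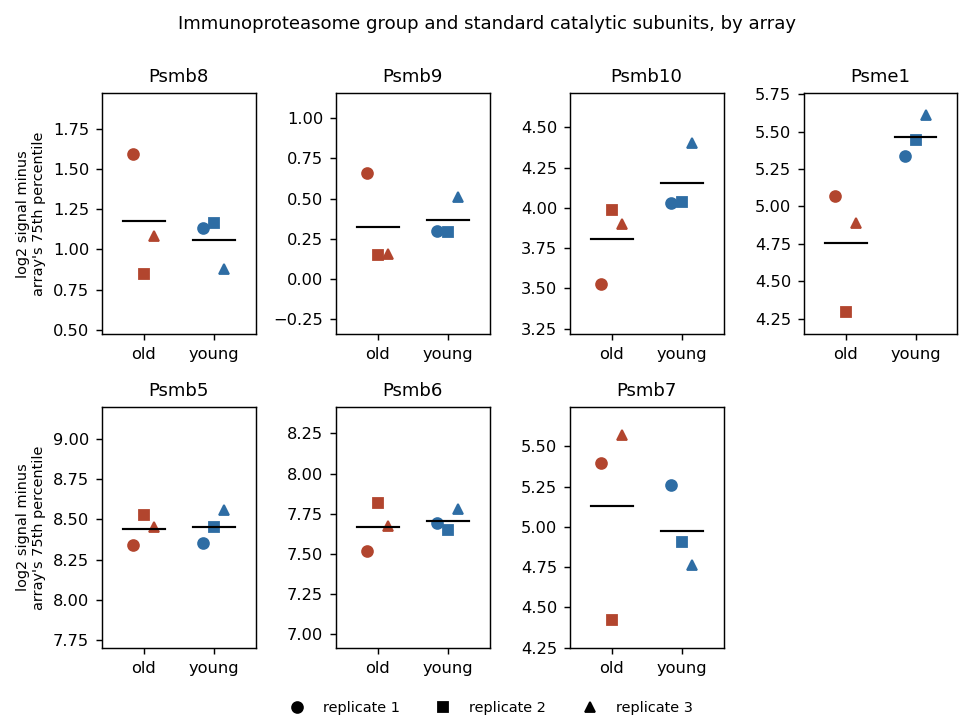
Log2 signal relative to the array's 75th percentile on each of the 6 arrays for the immunoproteasome genes (upper row) and the standard catalytic subunits (lower row), old left of young, with a horizontal line at each age's mean and a marker shape for each replicate number. The old values lie below the young ones for Psmb10 and Psme1 and overlap them for the other 5 genes.

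Each immunoproteasome subunit was then set against the standard subunit whose place it takes, within each array, so that the array's scale cancels. Psmb8 minus Psmb5 differed by 0.13 between old and young muscle, Psmb9 minus Psmb6 by -0.01, and Psmb10 minus Psmb7 by -0.50. The exact two-sided permutation test gave p = 0.8, 1.0 and 0.3 for these 3 pairs (0.9 or 1.0 after adjustment over them), and with 3 arrays per age it cannot go below 0.1. The pair of Psmb10 and Psmb7 was -1.87, -0.43 and -1.67 in old muscle, against -1.23, -0.87 and -0.36 in young muscle. Old replicate 2 lay among the young values. The difference depended on single arrays: it was -0.23 without old replicate 1, -0.33 without old replicate 3, -0.27 without young replicate 3 and -0.95 without old replicate 2, and -1.05 within row 1 of the slide. The other pairs turned on old replicate 1: within row 1 of the slide they were 0.65 and 0.49, and without old replicate 1 they were -0.13 and -0.25.

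The promoters of these subunits are shown because the known inducers of both proteasome forms act through short elements upstream of the gene. Nrf1 induces the standard subunits through antioxidant response elements, and interferon gamma acts through gamma-activated sites and interferon-stimulated elements. The 250 bases before the start in RefSeq's GRCm38.p6 are given 5′ to 3′ for 2 standard subunits and 2 immunoproteasome genes, in lower case with motif matches in capitals. The array grid names mm9, so these coordinates do not place the probes. The capitals mark a TGACNNNGC match in Psmb5 and Psmb6 and a TTCNNNGAA match in Psmb8, which start 47, 9 and 97 bases before the gene start, and Psme1 has no match.
Psmb5, GRCm38.p6 chr14:54617996-54618245, minus strand: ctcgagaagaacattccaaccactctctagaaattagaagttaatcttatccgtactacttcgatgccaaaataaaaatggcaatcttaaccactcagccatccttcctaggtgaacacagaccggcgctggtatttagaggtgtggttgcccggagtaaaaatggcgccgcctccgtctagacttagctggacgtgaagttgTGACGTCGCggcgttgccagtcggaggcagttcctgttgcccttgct
Psmb6, GRCm38.p6 chr11:70525107-70525356, plus strand: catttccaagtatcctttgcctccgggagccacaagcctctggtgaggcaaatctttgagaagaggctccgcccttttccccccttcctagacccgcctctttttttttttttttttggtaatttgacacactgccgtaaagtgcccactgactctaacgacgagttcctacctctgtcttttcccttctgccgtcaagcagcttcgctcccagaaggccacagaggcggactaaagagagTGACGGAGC
Psmb8, GRCm38.p6 chr17:34197945-34198194, plus strand: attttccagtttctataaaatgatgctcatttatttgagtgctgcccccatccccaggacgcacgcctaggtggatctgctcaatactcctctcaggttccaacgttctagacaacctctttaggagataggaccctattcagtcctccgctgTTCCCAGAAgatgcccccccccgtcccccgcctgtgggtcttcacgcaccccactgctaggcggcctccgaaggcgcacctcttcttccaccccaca
Psme1, GRCm38.p6 chr14:55578244-55578493, plus strand: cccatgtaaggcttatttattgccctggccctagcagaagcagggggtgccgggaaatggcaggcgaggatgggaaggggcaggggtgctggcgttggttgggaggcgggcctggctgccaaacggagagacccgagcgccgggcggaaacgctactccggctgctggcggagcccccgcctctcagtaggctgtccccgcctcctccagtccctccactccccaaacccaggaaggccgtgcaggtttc
The 3 motifs were searched on both strands in 39 promoters of 37 of the 44 genes. The antioxidant core TGACNNNGC was in 5 of the 39 (12.8%), those of Psmb5, Psmb6, Psmc6, Psmd9 and Psmd12, and in 10.2% of all 32851 promoters of the same length. The interferon-stimulated core GAAANNGAA was in 3 of the 39 (7.69%), those of Psmb3, Psmd4 and Psmd9, and in 7.13% of all promoters, and the 2 motifs in Psmd9 did not overlap. The gamma-activated site TTCNNNGAA was in 1 of the 39 (2.56%), that of Psmb8, and in 7.02% of all promoters. The shares for the first 2 motifs were close to the background. Psmb5, Psmb6 and Psmb8, whose promoters are printed with a match, had differences from -0.04 to 0.12, and Psme1, printed with none, had -0.71. The other genes with a match ran from -0.28 for Psmd9 to 0.14 for Psmb3. Psma1 to Psma7, with no match, ran from -0.08 to 0.16. A link between motif and difference was not tested.

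The 17 Psmc and Psmd subunits of the 19S regulatory particle leaned to positive differences of small size under the percentile scaling, with 16 positive. Their median of 0.11 became -0.03 with each array centred on its median. Sem1 and Adrm1, 19S genes that carry other symbols, differed by -0.26 and -0.06. None of the 17 passed the test. The pooled within-age SD of these array medians was 0.07. Their intervals lay within 1 log2 unit of 0 for 14 genes and within 0.5 for 9.

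The 6 ATPases of the 19S base, which unfold substrates, had differences from 0.01 to 0.76 with a median of 0.09. Psmc2 had 7.22, 7.11 and 7.12 in old muscle, against 7.05, 7.10 and 6.96 in young muscle, and Psmc4 had 5.39, 5.23 and 5.33 in old muscle, against 5.22, 5.17 and 5.18 in young muscle. In both the ages were separated by narrow gaps, and the differences of 0.11 ± 0.14 and 0.13 ± 0.14 did not pass the test. With each array centred on its median they were -0.03 and -0.02. Psmc5 had 5.94, 5.44 and 5.98 in old muscle and 3.32, 5.88 and 5.88 in young muscle. Its difference of 0.76 ± 0.68 came from young replicate 1, which lay 2.56 below the median of the other arrays, and without that array it was -0.10. Psmc1 differed by 0.03 with a within-age SD of 0.029, the smallest of the 42 genes, whereas its second probe gave 1.11. Different probes can measure different transcripts, so the value of Psmc1 holds for 1 probe.

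The 11 other subunits of the particle with a Psmd symbol had differences from -0.17 to 0.85 with a median of 0.11. Psmd14, the deubiquitinase that removes ubiquitin chains from substrates, had 2.50, 1.68 and 3.12 in old muscle and 2.24, 1.48 and 1.01 in young muscle. The ages overlapped and the difference was 0.85 ± 0.44 (1.81-fold, adjusted p = 0.426), or 0.57 without young replicate 3 and 0.51 without old replicate 3, the array farthest from the others. Psmd11, a lid subunit, had 4.34, 3.31 and 4.46 in old muscle and 3.70, 3.72 and 2.43 in young muscle. The lowest value was again that of young replicate 3, and the difference of 0.75 ± 0.45 (adjusted p = 0.482) was 0.33 without it. Psmd8, also of the lid, had 5.94, 5.64 and 5.91 in old muscle and 5.81, 5.52 and 5.36 in young muscle, with overlapping ages and a difference of 0.27 ± 0.19. Psmd6, a further lid subunit, had 5.85, 5.73 and 5.70 in old muscle and 5.91, 5.80 and 6.10 in young muscle, a difference of -0.17 ± 0.16 and the only negative one of the 17. The base scaffold subunits Psmd1 and Psmd2 differed by 0.11 ± 0.14 and 0.20 ± 0.19, and Psmd2 by 0.08 when either young replicate 3 or old replicate 1 was left out. Psmd1 had 6.97, 7.03 and 7.07 in old muscle, against 6.92, 6.94 and 6.86 in young muscle, separated by a gap smaller than the SE, and it was -0.03 with each array centred on its median.

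The 3 chaperones that assemble the 19S base and carry a Psmd symbol went in both directions. Psmd10, known as gankyrin, had 0.62, 0.61 and 1.14 in old muscle, against 0.42, 0.13 and 0.33 in young muscle. All old values lay above all young ones, and the difference of 0.50 ± 0.20 (1.41-fold, unadjusted p = 0.0455) did not pass after adjustment (adjusted p = 0.337). Without old replicate 3, the highest array, it was 0.32. Its second probe gave 0.26 with overlapping ages. Psmd5 had 2.12, 1.79 and 2.54 in old muscle and 1.87, 1.74 and 1.73 in young muscle, with 1 old value inside the young range and a difference of 0.37 ± 0.22, or 0.18 without old replicate 3. Psmd9 had 1.27, 1.63 and 1.45 in old muscle and 1.83, 1.54 and 1.81 in young muscle, a difference of -0.28 ± 0.17, and its second probe gave -0.10.

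The remaining activators and the inhibitor had negative differences, from -0.46 to -0.08, although Psme2b was positive with the mean of its probes (0.15), and none passed the test. Psmf1 encodes PI31, which was described as an inhibitor of the core. It had 0.78, 0.30 and 0.27 in old muscle, against 0.89, 0.82 and 1.01 in young muscle. The ages did not overlap, the difference was -0.46 ± 0.19 (unadjusted p = 0.05, just under the threshold before rounding, and adjusted p = 0.346), and within row 1 of the slide it was -0.13. Psme4, the activator PA200, had 4.01, 3.75 and 3.63 in old muscle, against 4.27, 4.03 and 4.31 in young muscle. All old values were lower by a narrow gap, and the difference was -0.41 ± 0.18 (adjusted p = 0.36), -0.55 by its second probe and -0.19 within row 1 of the slide. Psme3, the nuclear activator PA28 gamma, differed by -0.08 ± 0.19. Psme2b, a copy of Psme2, differed by -0.08 ± 0.21, and its 3 probes ran from -0.08 to 0.48, so its value is uncertain.

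**Figure D3:**
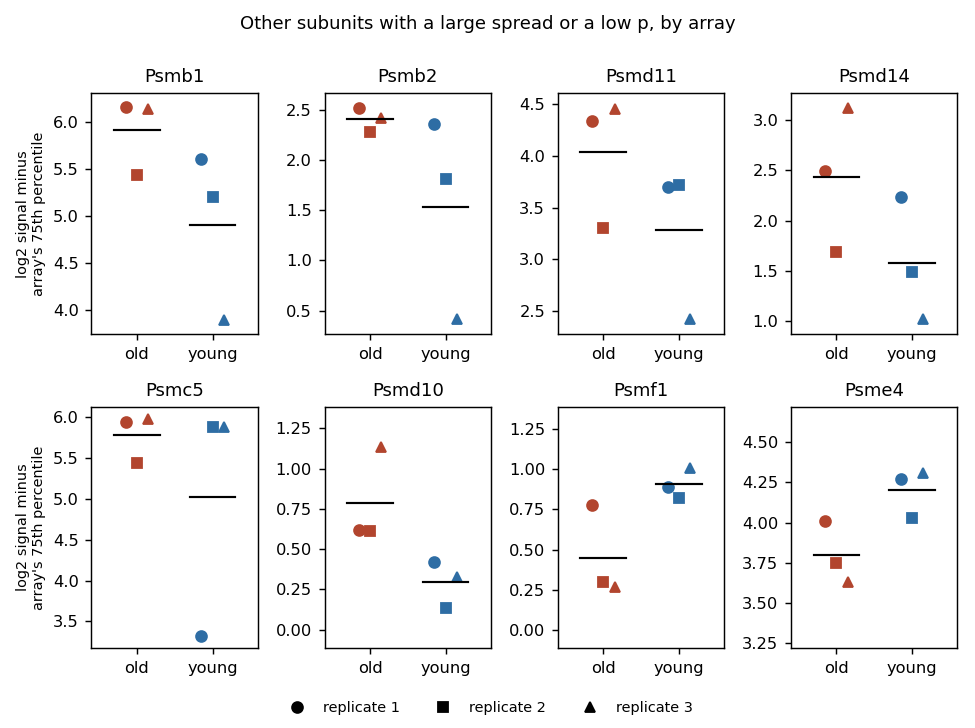
Log2 signal relative to the array's 75th percentile on each of the 6 arrays for 8 other proteasome genes with a large spread or a low p, old left of young, with a line at each age's mean and a marker shape for each replicate number. Young replicate 3 is the lowest point for Psmb1, Psmb2, Psmd11 and Psmd14, young replicate 1 for Psmc5, and old and young values do not overlap for Psmd10, Psmf1 and Psme4.

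The differences of Psmb1, Psmb2 and Psmd11 were thus at least 1.5 times smaller without young replicate 3, and that of Psmc5 turned without young replicate 1. Young replicate 3 lay more than 1 log2 unit below the median of the other 5 arrays for 4 of the 42 genes, Psmb1, Psmb2, Psmd11 and Psmd14. Over all genes tested this was so for 5.62% of genes on that array and for 2.73% to 4.16% on each of the other 5. The within-age SD was 1.07 for Psmc5, 0.714 for Psmb2, 0.699 for Psmb1, 0.689 for Psmd11, 0.673 for Psmd14 and 0.476 for Psmb7. These 6 genes were the only ones of the 42 with a within-age SD above that of Psme1, 0.303.

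Genes that work with the proteasome but carry other symbols were given the same test. None of the members of these lists passed at an adjusted p under 0.05, apart from 2 of the leukocyte markers. A list of 7 genes held the core assembly chaperones Psmg1 to Psmg4 and Pomp, together with Akirin2 and Ecpas. Of these 7 genes 5 were positive, where 43.1% of all genes tested were. Their median was 0.12, and the chaperones Psmg3 and Psmg4 differed by 0.30 and 0.23. Among 6 other genes of or bound to the 19S particle, some of them ubiquitin receptors or deubiquitinases, 2 were positive and 4 negative. Their median was -0.04. Uchl5, a deubiquitinase bound to the particle, had 4.49, 4.40 and 4.39 in old muscle, against 4.75, 4.89 and 5.09 in young muscle. The ages did not overlap and the difference was -0.48 ± 0.16 (adjusted p = 0.267), while the particle-bound thioredoxin Txnl1 differed by 0.37. The 8 measured shuttle factors, which carry ubiquitylated proteins to the proteasome, had a median of 0.00, with Ubqln4 at 0.76 (0.13 without young replicate 3) and Zfand2a at 0.27.

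The Nrf1 pathway raises proteasome genes when the proteasome is short, and its list here also held Nfe2l2, Keap1 and Bach1. Of its 9 genes 6 were negative, where 11896 of all 20907 genes tested were negative. Its median was -0.06, as over all genes tested. Nfe2l1, which encodes Nrf1 itself, differed by -0.05 ± 0.19. Vcp, the ATPase that extracts proteins for degradation and releases Nrf1 from the membrane, differed by -0.35 ± 0.17, and Ngly1, which removes the sugars of Nrf1, by -0.30 ± 0.17. The ubiquitin-activating enzyme Uba6 differed by 0.17, and by -0.33 within row 1 of the slide. Of 12 genes of the interferon gamma response and of peptide loading, 7 were positive with a median of 0.07, where 43.1% of all genes tested were positive. Ifngr2, a chain of the interferon gamma receptor, had 4.16, 4.43 and 4.23 in old muscle, against 4.76, 4.66 and 4.73 in young muscle, a difference of -0.44 ± 0.15 (adjusted p = 0.286). Pdia3, of the peptide-loading complex, differed by 0.61 ± 0.26 (adjusted p = 0.353), or 0.34 without old replicate 3 and 0.20 within row 1 of the slide, and Irf1, a transcription factor that interferon gamma induces, by 0.00 ± 0.15. Nfe2l1 and Irf1 were singled out after their values had been seen.

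Leukocytes express the immunoproteasome strongly, so their markers are given beside it. Of the 14 measured markers 8 were positive and 6 negative, where 43.1% of all genes tested were positive, with a median difference of 0.76. The calprotectin subunits S100a8 and S100a9 rose by 4.80 ± 0.31 and 4.70 ± 0.30 (adjusted p = 0.00604 for each). The size held, from 3.31 to 5.24 for S100a8 over the 18 alternatives, but both calls were lost without old replicate 3 (adjusted p = 0.0798), with the replicate block (0.063) and within row 1 of the slide (0.159). The myeloid adaptors Tyrobp and Fcer1g differed by 0.88 ± 0.17 and 0.87 ± 0.21 without passing. The summed linear level of the 14 markers, relative to each array's 75th percentile, ran from 70.0 to 77.7 on old arrays and from 48.1 to 56.0 on young arrays. Without S100a8 and S100a9 the sum of the other 12 ran from 53.6 to 54.3 on old arrays and from 47.7 to 55.3 on young arrays, so the sums overlapped. A linear sum weighs bright markers most, such as Itgam (difference -0.26) and Csf1r (-0.05). By gene, 6 of the 14 markers had all old values above all young ones, against 7.93% of all genes tested. Cd68 (1.08) and Adgre1 (0.64) were among them, and 1 marker had all old values below, against 13.9% of all genes. Psmb8, Psmb9 and Psmb10 had differences of 0.12, -0.04 and -0.35 in the same samples. The part of leukocyte RNA in the values of the immunoproteasome genes was not tested, and in whole muscle fewer cells of a type and less RNA per cell cannot be told apart.

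**Figure D4:**
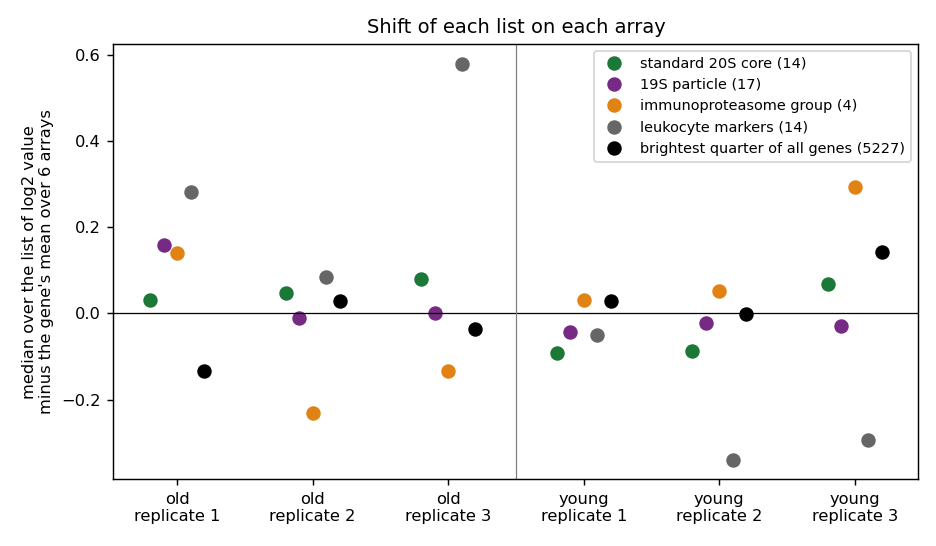
For each array, old left of young, the median over a list of the genes' log2 values minus each gene's mean over the 6 arrays, for the standard 20S core, the 19S particle, the immunoproteasome group, the leukocyte markers and the brightest genes (number of genes in brackets). The 20S points run from -0.09 to 0.08 and the 19S points from -0.04 to 0.16, young replicate 3 is the highest array for the immunoproteasome group at 0.29, and the leukocyte points lie above 0 on every old array and below 0 on every young array; the median differences of the 20S core and the 19S particle turn negative with each array centred on its median.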

How the data were processed

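Processed microarray intensities of 3 old and 3 young gastrocnemius samples were used. The authors deposited scanner files whose processed intensity had its background subtracted and its spatial trend removed in Feature Extraction 11.0.1.1, per the file headers, while the submitters' processing notes name version 9.5. The authors' deposited value table of intensities equals the processed signal over the array's 75th percentile, times a constant and rounded, in 62976 of 62976 spots within 1 unit, and served as an alternative.

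Control and outlier-flagged spots were left out. The log2 intensity minus the array's 75th percentile was averaged over a probe's spots. Probes well above background on at least 3 arrays were kept (28013), and a gene was its kept probe with the highest mean. Differences between old and young were fitted with limma 3.58.1 (R 4.3.3, lmFit and eBayes, two-sided, Benjamini-Hochberg over 20907 genes). Within-array pairs used an exact permutation test (scipy 1.17.1). Values on every array were given for the immunoproteasome and standard catalytic genes and the 12 other members with the lowest p, and for members whose ages did not overlap or that end a range. Of each other list up to 4 members of lowest p were given, and 1 result is not reported here. The members and lists were chosen with earlier results of these data known.

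The fit was tested on data simulated for old against young over 20899 genes. Each log2 size was given to 50 genes. The fit called 1 of those changed by 0.5, 11 of those changed by 1, 33 of those changed by 2 and 43 of those changed by 3, beside 6 false calls. It made 0 calls where nothing was changed.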

Additional observations from a re-analysis of the deposited data

How the results depend on the processing

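No proteasome gene passed an adjusted p of 0.05 in any of the 18 alternatives. The main counts without adjustment (p under 0.05) were 1 gene higher and 2 lower. They were 0 higher with median centring, no filter on dim probes, the mean of probes, the slide row as a block, slide row 1 alone and the replicate block, and 2 with normexp. They were 3 lower with median centring, normexp, eBayes with trend and robust, and array weights, 1 lower with the authors' values, no filter, the slide row as a block and the replicate block, and 0 in row 1 alone. Leaving out 1 array gave 0 to 4 higher and 0 to 3 lower: 0 of either without young replicate 3, 4 higher without old replicate 2, 3 lower without old replicate 1. The replicate numbers did not pair the samples (correlations of deviations -0.06, -0.27 and 0.03), and the replicate block left 5 calls over all genes in place of 53. The 20S median was 0.15 with quantile normalization and -0.072 with median centring, and the 19S median 0.21, -0.033 and, with the slide row as a block or in row 1 alone, 0.20. In row 1 the pairs Psmb8 minus Psmb5 and Psmb9 minus Psmb6 were 0.65 and 0.49.

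Signs turned for genes near 0. Quantile normalization gave Psmb5 0.11, Psmb6 0.10 and Psma3 0.049. Median centring gave Psmb8 -0.029, Psmb3 -0.0055, Psmc2 -0.033, Psmc4 -0.021, Psmd1 -0.032, Psmc1 -0.11 and Irf1 -0.14. Normexp gave Psmb5 0.050 and Irf1 -0.084, the mean of probes Psmb5 0.068 and Psme2b 0.15, and array weights Psmb8 -0.033, Psmb5 0.040, Psmb6 0.019 and Psme2b 0.073. The slide row as a block or row 1 alone gave Psmb9 0.29, Zfand2a -0.12, Uba6 -0.33 and Nfe2l1 0.0096. Leaving out 1 array, Psmc5 ran from -0.095 to 1.19, Psme3 from -0.19 to 0.051, Psmb9 from -0.21 to 0.042, Psmb5 from -0.063 to 0.040, Psmb6 from -0.11 to 0.039, Psme2b from -0.18 to 0.11, Psmb8 from -0.091 to 0.28, Psmb7 from -0.068 to 0.51, Nfe2l1 from -0.15 to 0.076, Irf1 from -0.074 to 0.044 and Uba6 from -0.0035 to 0.42. The cause was not tested. Normexp used the spots' median signal.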
